A study of Mus musculus with 20 samples.

Results

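The complement system was followed through 8 of its genes in 2 brain regions of a mouse model of painful diabetic neuropathy. The genes were listed by name with earlier results of these data known, out of 57180 gene identifiers in the count table. They were C3, C4b, C1qa, C1qb, C1qc, Serping1, C3ar1 and C5ar1. The tissue came from the paraventricular thalamic nucleus (PVT), a midline thalamic nucleus tied to arousal and negative emotion, and from the posterior insular cortex (pIC), which processes pain and body state. Mice of the STZ groups had been made diabetic by streptozotocin (STZ), which kills the insulin-producing cells of the pancreas, given once into the peritoneum at 200 mg/kg, and the control groups had received vehicle. Punches were taken at week 7 for poly(A) RNA sequencing, which gave 6 PVT STZ, 4 PVT control, 6 pIC STZ and 4 pIC control libraries. The labels state neither strain, sex, age nor blood glucose, and whether each library came from its own animal is not stated, so p-values measure the spread between libraries.

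Complement is a cascade of secreted proteins that tag surfaces for removal. In its classical pathway the C1q protein, built of chains encoded by C1qa, C1qb and C1qc, starts a chain of cleavages through C4 and C2 to C3, while Serping1 (C1 inhibitor) blocks the proteases bound to C1q. Cleavage of C3 and C5 releases small peptides that are sensed by the receptors C3aR (C3ar1) and C5aR1 (C5ar1) on myeloid cells. In the brain, C1q is made mostly by microglia, C4 and C3 are made by several cell types including glia and choroid plexus, and complement takes part in the removal of synapses.

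Library totals spanned 21.7 M–25.3 M counts for PVT STZ, 17.9 M–24.5 M for PVT control, 19.0 M–25.5 M for pIC STZ and 21.2 M–23.3 M for pIC control. Values are CPM, that is counts per 1 M counts of the library, with TMM scaling over all 20 libraries. Summed CPM of 10 thalamic neuron markers was 446.9 to 1792 in PVT STZ and 446.2 to 958.3 in PVT control libraries, and 138.6 to 186.1 in pIC STZ and 149 to 180.5 in pIC control libraries. PVT punches also held choroid plexus, striatal and cortical transcripts. The 10 striatal neuron markers summed to 329.3 to 3981 CPM in PVT STZ and 409.4 to 1720 CPM in PVT control libraries. The 10 cortical excitatory neuron markers summed to 606 to 1246 CPM and 268.5 to 1177 CPM in these groups. The striatal and thalamic sums were 3981 and 446.9 CPM in PVT STZ replicate 1, and 329.3 and 1792 CPM in replicate 5. All 10 striatal markers had a positive log2 fold change, STZ over control, in PVT, and 0 passed the test (edgeR). PVT control replicate 4 held growth hormone (Gh) at 11830 CPM. These are bulk punches, in which fewer cells of a type and less RNA per cell cannot be told apart.

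The sequence before the start of a gene is shown for C3, the member that fell most in PVT, and for C5ar1, the member that rose in pIC. RefSeq windows (build GRCm38.p6, 250 bases before to 50 after the start) were at hand for 5 of the 8 members, namely C3, C5ar1, C3ar1, C1qb and C1qc. They were searched on both strands for GAAANNGAA, the core of the interferon-stimulated response element, for TTCNNNGAA, the gamma-activated site, and for GGGANTTTC, a core of the NF-kB site. These were in 8.56%, 8.3% and 1.11% of 32851 windows. The C5ar1 window held 1 match, to the interferon-stimulated response element core on the minus strand of the window, starting at position −66 relative to the start and printed in capitals. The other 4 windows held none of these letters. The C3 window lies at chr17:57228087-57228386 and the C5ar1 window at chr7:16259289-16259588, both on the minus strand of the genome and printed 5′ to 3′ along the gene.
C3: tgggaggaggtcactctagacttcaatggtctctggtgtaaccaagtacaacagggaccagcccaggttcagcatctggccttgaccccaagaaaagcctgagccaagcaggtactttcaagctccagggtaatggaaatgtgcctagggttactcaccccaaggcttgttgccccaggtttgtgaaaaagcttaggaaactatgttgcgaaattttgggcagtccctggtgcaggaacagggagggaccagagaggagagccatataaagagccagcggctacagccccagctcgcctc
C5ar1: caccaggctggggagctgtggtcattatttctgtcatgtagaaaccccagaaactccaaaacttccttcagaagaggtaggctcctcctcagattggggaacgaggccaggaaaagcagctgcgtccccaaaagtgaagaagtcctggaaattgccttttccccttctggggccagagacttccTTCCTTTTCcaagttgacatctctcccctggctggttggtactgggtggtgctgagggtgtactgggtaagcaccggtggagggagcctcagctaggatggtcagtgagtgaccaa

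The central component C3 (ENSMUSG00000024164) was lower in STZ mice in PVT, and C4b was lower there too, while none of the C1q genes, Serping1 or the receptors passed the test. C3 was at 2.02, 2.40, 2.71, 3.19, 3.36 and 3.40 CPM in the PVT STZ libraries (50 to 84 counts) and at 6.95, 5.21, 4.82 and 6.32 CPM in the PVT control libraries (108 to 172 counts). Every PVT STZ library was below every PVT control library, and the groups averaged 2.85 ± 0.560 CPM in STZ (SD, n = 6) and 5.82 ± 0.985 CPM in control (SD, n = 4). The fall was 1.03 on the log2 scale (SE 0.169, 95% interval −1.40 to −0.66, edgeR quasi-likelihood test with Benjamini-Hochberg adjustment, adjusted p = 0.0109). Leaving out any 1 library kept the call, with adjusted p of 0.0148 to 0.0495. The highest of these was the fit without control replicate 4, the library with growth hormone, where the log2 fold change was −0.99. The call was lost in 3 of 21 alternatives, namely with the replicate block (adjusted p = 0.0617) and with the choroid plexus or the ependyma score as covariate (adjusted p = 0.279 and 1). The block joined STZ and control libraries by number alone, which the labels do not link.

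C4b (ENSMUSG00000073418) encodes complement C4, the substrate of the C1 proteases. It was at 25.6, 22.9, 26.03, 24.8, 31.6 and 21.7 CPM in PVT STZ and at 45.6, 43.7, 30.6 and 36.2 CPM in PVT control libraries. STZ replicate 5, at 31.6 CPM, was above control replicate 3, at 30.6 CPM, so the groups overlapped by that pair. The means were 25.4 ± 3.43 CPM in STZ and 39.0 ± 6.93 CPM in control libraries, a fall of 0.62 on the log2 scale (SE 0.125, 95% interval −0.89 to −0.34, edgeR, adjusted p = 0.0302). The call was lost in 8 of 10 fits that left out 1 library. Without control replicates 1, 2 and 4 the adjusted p was 0.111, 0.0688 and 0.0824, and it was 0.0668, 0.0675, 0.0666, 0.0823 and 0.0574 without STZ replicates 1, 2, 3, 4 and 6. C4a, a near-identical neighbour of C4b whose reads the counting could have split, was at 0.327 to 0.648 CPM in PVT STZ and 0.404 to 0.761 CPM in PVT control libraries. How reads shared by both genes were counted is not given, so the values of both genes are uncertain by an unknown amount.

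These 2 of 8 members stand beside 2.07% of 17076 tested genes called in PVT (0.474% higher and 1.59% lower), and the groups did not overlap for 1 member and for 6.2% of the tested genes. Of the called genes 81 were higher and 272 lower, and with upper quartile scaling 58 and 416. The members' median log2 fold change was −0.13, and the median over all tested genes was 0.0038.

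**Figure D1:**
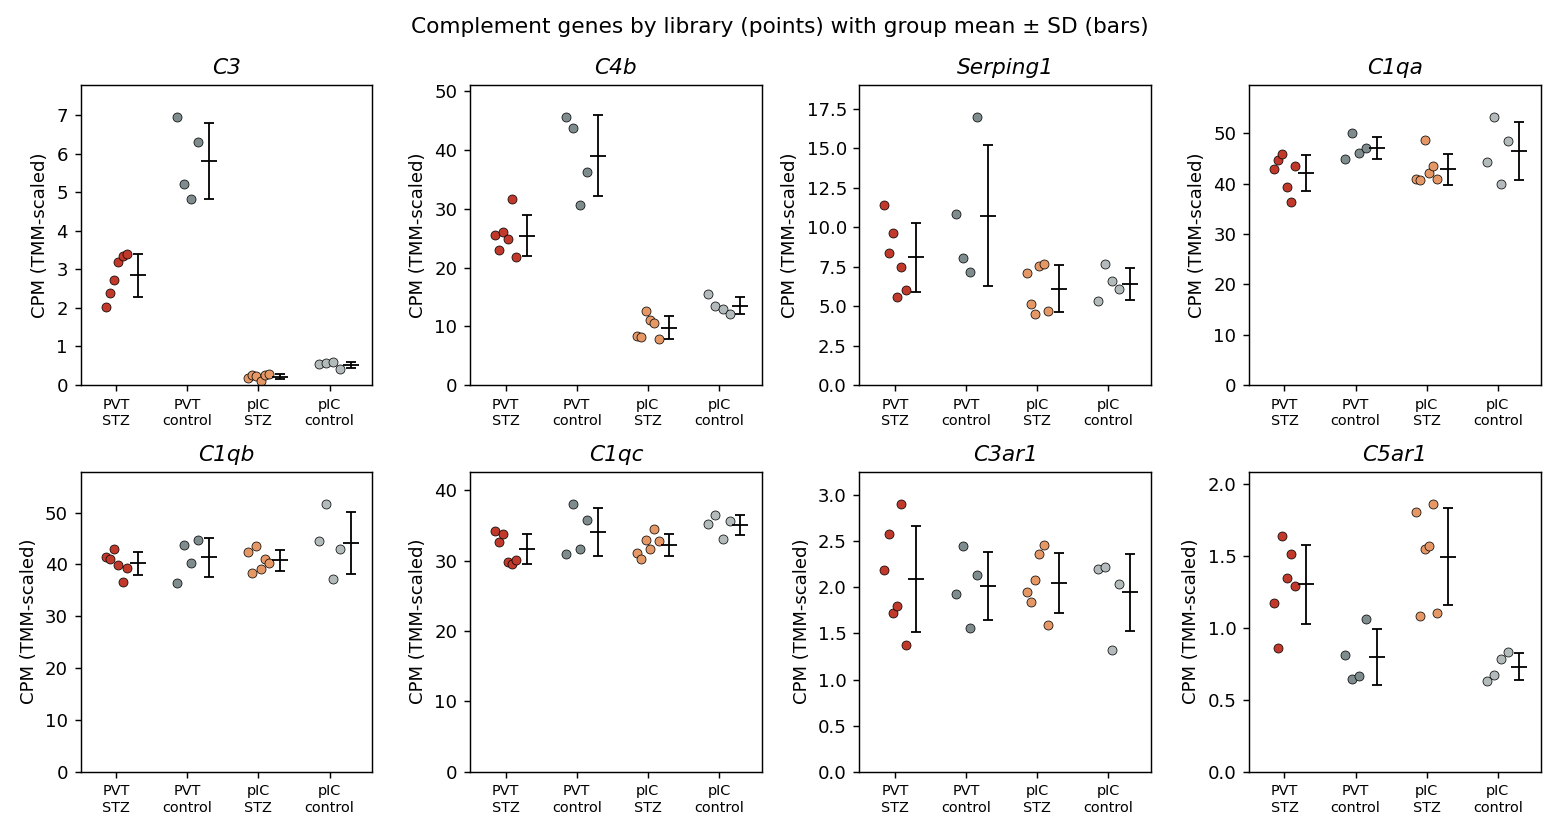
TMM-scaled CPM of the 8 complement genes in each library (points, y axes from 0) for PVT STZ, PVT control, pIC STZ and pIC control, with the group mean and SD as bars (n = 6 STZ and 4 control libraries per region). C3 and C4b are set apart by region. In PVT they are lower in STZ, at means of 2.85 and 25.4 CPM against 5.82 and 39.0 CPM in control. In pIC C3 was not tested and C4b did not pass the test. The 3 C1q genes lie at like levels in the 4 groups, and C5ar1 averages 1.498 CPM in pIC STZ and 0.730 CPM in pIC control.

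In pIC C5ar1 rose, and none of the other 6 members tested passed. C5ar1 (ENSMUSG00000049130), the receptor for the C5a peptide, was at 1.81, 1.09, 1.55, 1.58, 1.87 and 1.10 CPM in pIC STZ libraries (20 to 44 counts) and at 0.629, 0.676, 0.785 and 0.832 CPM in pIC control libraries (14 to 18 counts). All 6 STZ libraries were above all 4 control libraries. The means were 1.498 ± 0.336 CPM in STZ and 0.730 ± 0.0942 CPM in control libraries, a rise of 1.03 on the log2 scale (SE 0.227, 95% interval 0.54 to 1.52, edgeR, adjusted p = 0.0399). This call was lost in 8 of 10 fits that left out 1 library. The adjusted p was 0.141, 0.137, 0.0892 and 0.0936 without control replicates 1, 2, 3 and 4, and 0.0837, 0.0524, 0.0799 and 0.0665 without STZ replicates 1, 3, 4 and 5.

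The same receptor had the same sign in PVT without passing the test. C5ar1 was at 1.17, 0.860, 1.64, 1.35, 1.51 and 1.29 CPM in PVT STZ and at 0.812, 0.646, 0.669 and 1.06 CPM in PVT control libraries. STZ replicate 2 lay inside the control range and the other 5 STZ libraries lay above it. The log2 fold change was 0.70 (SE 0.234, 95% interval 0.19 to 1.21, edgeR, adjusted p = 0.152). Thus 1 of 7 members tested in pIC was called, beside 1.4% of 16189 tested genes (0.432% higher and 0.964% lower), and the groups did not overlap for 1 tested member and for 4.28% of tested genes.

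C4b in pIC was at 8.39, 8.19, 12.6, 11.1, 10.51 and 7.82 CPM in STZ and at 15.5, 13.5, 13 and 12.1 CPM in control libraries. STZ replicate 3 alone reached into the control range. That library also had the highest sums of striatal neuron and oligodendrocyte markers in its group, 4085 and 6586 CPM. The part of tissue content in its C4b value was not tested. The means were 9.78 ± 1.93 CPM in STZ and 13.5 ± 1.43 CPM in control libraries, with a log2 fold change of −0.47 (SE 0.133, 95% interval −0.75 to −0.18, edgeR, adjusted p = 0.127). Without STZ replicate 3 the adjusted p was 0.0243, and with DESeq2 0.0489, within a range of 0.0207 to 0.374 over the alternatives.

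C3 in pIC was too low for the filter on low counts and was not tested. It had 4, 6, 6, 2, 6 and 5 counts in the pIC STZ libraries and 12, 12, 12 and 9 counts in the pIC control libraries. Every STZ library was below every control library, at 0.0985 to 0.275 CPM in STZ and 0.416 to 0.589 CPM in control. Without the filter the log2 fold change was −1.24 (SE 0.397) and did not pass over 28994 genes (edgeR, adjusted p = 0.201).

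**Figure D2:**
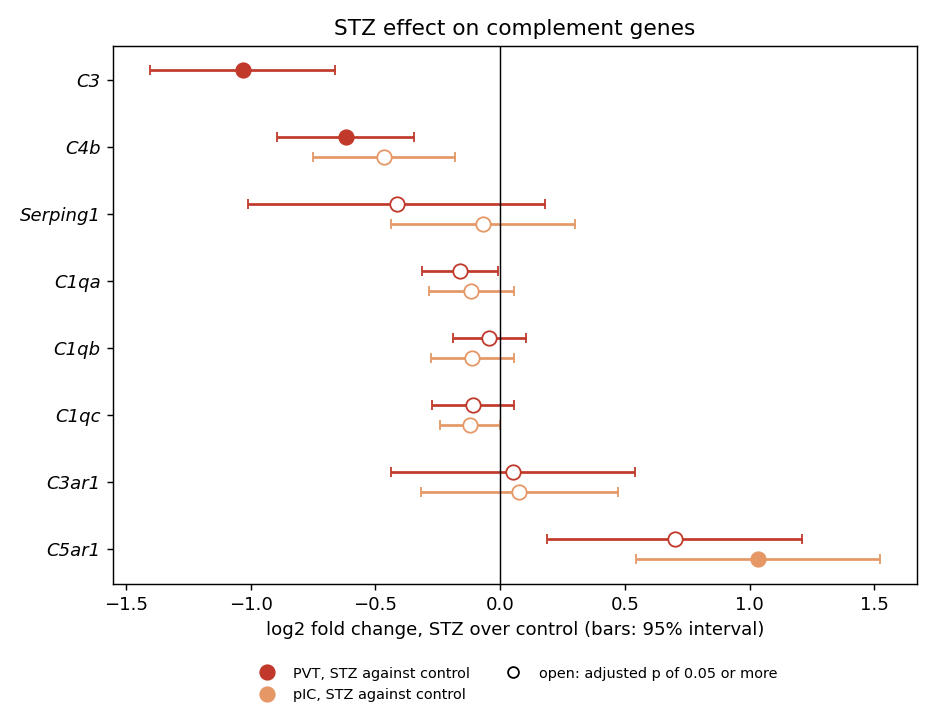
Log2 fold change of STZ over control (x axis) with its 95% interval for each complement gene in PVT (upper symbol of each pair) and pIC (lower symbol), filled where the adjusted p was under 0.05. C3 at −1.03 and C4b at −0.62 are filled in PVT, C5ar1 at 1.03 is filled in pIC, and C3 has no pIC symbol because it was not tested there.

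The C1q genes, which encode the recognition molecule of the classical pathway, did not pass the test in either region. C1qa (ENSMUSG00000036887) was at 42.9, 44.6, 45.9, 39.4, 36.4 and 43.6 CPM in PVT STZ and at 45.0, 50.02, 46.1 and 47.2 CPM in PVT control libraries. Its log2 fold change was −0.16 in PVT (95% interval −0.31 to −0.0078, edgeR, adjusted p = 0.259) and −0.12 in pIC (95% interval −0.28 to 0.05, edgeR, adjusted p = 0.621). C1qb (ENSMUSG00000036905) had −0.04 in PVT (−0.19 to 0.10) and −0.11 in pIC (−0.28 to 0.05), and C1qc (ENSMUSG00000036896) −0.11 in PVT (−0.27 to 0.05) and −0.12 in pIC (−0.24 to −0.0014). All 6 estimates were below 0, and the lowest bound of their intervals was −0.31, a difference smaller than those of C3 and C4b in PVT.

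The 3 C1q genes, which lie side by side with no other RefSeq gene between them on chromosome 4, kept nearly fixed proportions. C1qa made up 35.5% to 38.6% of their summed CPM in PVT STZ, 36.9% to 40.0% in PVT control, 35.8% to 38.9% in pIC STZ and 35.7% to 38.1% in pIC control libraries. Their summed CPM was set against that of 15 microglia markers, among them P2ry12, Tmem119 and Cx3cr1. The ratio was 0.273 to 0.300 in PVT STZ and 0.287 to 0.317 in PVT control libraries, and 0.271 to 0.294 in pIC STZ and 0.280 to 0.323 in pIC control libraries. The ranges overlapped in both regions, with medians of 0.285 in PVT STZ, 0.303 in PVT control, 0.283 in pIC STZ and 0.296 in pIC control. The microglia markers themselves summed to 375.9 to 409 CPM in PVT STZ and 382 to 443.1 CPM in PVT control, and to 389.1 to 440.1 CPM in pIC STZ and 394.3 to 437.4 CPM in pIC control libraries.

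Serping1 (ENSMUSG00000023224) was at 11.4, 8.38, 9.63, 5.598, 7.49 and 6.02 CPM in PVT STZ and at 10.8, 8.02, 7.13 and 17.0 CPM in PVT control libraries. The highest value was that of control replicate 4, the library with growth hormone, and the groups overlapped. The log2 fold change in PVT was −0.42 (95% interval −1.01 to 0.18, edgeR, adjusted p = 0.459), and without that library −0.10 (adjusted p = 0.918). In pIC it was −0.07 (−0.44 to 0.30, adjusted p = 0.921). C3ar1 (ENSMUSG00000040552), the receptor for the C3a peptide, averaged 2.09 ± 0.575 CPM in PVT STZ, 2.02 ± 0.370 CPM in PVT control, 2.05 ± 0.324 CPM in pIC STZ and 1.94 ± 0.422 CPM in pIC control libraries. Its log2 fold change was 0.05 in PVT (−0.44 to 0.54, edgeR, adjusted p = 0.932) and 0.08 in pIC (−0.32 to 0.47, adjusted p = 0.917). For neither gene does a missed threshold show equal levels.

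The difference between PVT and pIC in the STZ effect was tested as a region-by-treatment term in a fit of the 20 libraries. It was called for 0 of 8 members and for 0% of 17427 tested genes by edgeR, and 0 members had an unadjusted p under 0.05. DESeq2 and limma-voom also called 0 members. The difference of log2 fold changes, PVT minus pIC, was 0.19 for C3 (95% interval −0.41 to 0.80), −0.17 for C4b (−0.57 to 0.24) and −0.35 for C5ar1 (−0.999 to 0.30). The value for C3 rests on low counts in pIC, where it did not pass the filter. So the call of C3 and C4b in PVT and of C5ar1 in pIC does not show that the effect differed between regions.

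Between regions, C3 and C4b were higher in PVT in both treatments, Serping1 passed in control mice and missed the threshold in STZ mice, and the C1q genes and receptors did not pass. In STZ mice C3 was higher in PVT than in pIC by 3.65 on the log2 scale, or 12.6-fold (SE 0.224, edgeR, adjusted p = 3.8e-07), and in control mice by 3.45, or 10.9-fold (SE 0.208, edgeR, adjusted p = 1.2e-06). C3 passed the filter in these fits through its PVT counts. It had 2 to 6 counts in pIC STZ and 9 to 12 in pIC control libraries, so the size of the fold is uncertain. C4b was higher in PVT by 1.38 in STZ mice (SE 0.126, adjusted p = 3.9e-06) and by 1.54 in control mice (SE 0.130, adjusted p = 1.0e-05), and neither gene overlapped between the regions. In control mice Serping1 was higher in PVT by 0.76 (SE 0.266, edgeR, adjusted p = 0.0399). That call was lost without PVT control replicates 1 or 4 (adjusted p = 0.0795 and 0.0676) and without pIC control replicates 1, 3 or 4 (0.103, 0.0777 and 0.0951), and in STZ mice its difference was 0.41 (adjusted p = 0.102). For the C1q genes the differences between regions were −0.08 to 0.03 with adjusted p of 0.534 to 0.823. The called members, 2 of 8 in STZ and 3 of 8 in control mice, stand beside 49.1% of all tested genes in STZ mice (26% higher and 23.1% lower in PVT) and 47.8% in control mice (25.5% higher and 22.4% lower). The regions did not overlap for 27.8% of tested genes in STZ mice and 45.4% in control mice, so the members' shares are no higher than those of all genes called.

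The order of the groups was thus the same for C3 and C4b, with PVT control highest, then PVT STZ, pIC control and pIC STZ. For C3 no neighbours in this order overlapped, and for C4b PVT STZ and pIC control did not. For Serping1, C3ar1, C5ar1 and the C1q genes all neighbours in the order of means overlapped. Per kilobase of exon (lengths from GENCODE vM21, not the release behind the counts), C1qa averaged 40.5 CPM per kilobase in PVT STZ and 45.3 in PVT control, and C4b 4.73 in PVT STZ and 7.26 in PVT control. C3 averaged 0.554 CPM per kilobase in PVT STZ and 1.13 in PVT control, and C5ar1 0.508 in PVT STZ and 0.310 in PVT control. On this scale the C1q genes had the highest levels of the members in all 4 groups, at 26.3 or more, and C4b and Serping1 came next in PVT.

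Markers of ventricle-lining cells were set beside C3 and C4b in PVT. Choroid plexus makes cerebrospinal fluid and is known to express C3, and the 12 choroid plexus markers, led by transthyretin (Ttr), summed to 2022 to 4560 CPM in PVT STZ and 4206 to 8046 CPM in PVT control libraries. None of the 12 passed the test in PVT (edgeR and adjustment over all genes), although 10 had an unadjusted p under 0.05 and all 12 a negative log2 fold change, with a median of −0.73. The 10 ependyma markers summed to 67.0 to 97.2 CPM in PVT STZ and 111.3 to 149 CPM in PVT control libraries, without overlap. Of these, 9 passed the test as lower in STZ, beside 1.59% of all tested genes. By library the choroid plexus sum was 4110, 2172, 4560, 4091, 2022 and 4472 CPM in PVT STZ replicates 1 to 6 and 8046, 5602, 4206 and 5568 CPM in PVT control replicates 1 to 4. The groups overlapped in this sum, through control replicate 3 and STZ replicates 3 and 6, and did not overlap in C3. With the choroid plexus score as a covariate the log2 fold change of C3 was −0.93 and that of C4b −0.62 (edgeR, adjusted p = 0.279 and 0.346). With the ependyma score, which did not overlap between the groups, they were −0.72 and −0.92 (adjusted p = 1 for both). Over all alternatives the adjusted p ran from 7.9e-06 to 1 for C3 and from 0.00112 to 1 for C4b. In pIC the choroid plexus sum was 207 to 369.8 CPM in STZ and 211.8 to 247 CPM in control libraries. Ttr was only at 2.10 to 117.8 CPM in pIC STZ and 2.83 to 18.6 CPM in pIC control libraries. Most of the pIC sum thus came from other genes of the list, and it says little about choroid plexus there. Kcne2 and Cldn2, 2 of the markers, had at most 3 counts in every pIC control library. The ependyma sum was 6.78 to 16.4 CPM in pIC STZ and 6.19 to 10.1 CPM in pIC control libraries. The covariate fits in PVT cannot separate ventricle-lining tissue from treatment, because its markers moved with treatment. The part of that tissue in the values of C3 and C4b was not tested.

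**Figure D3:**
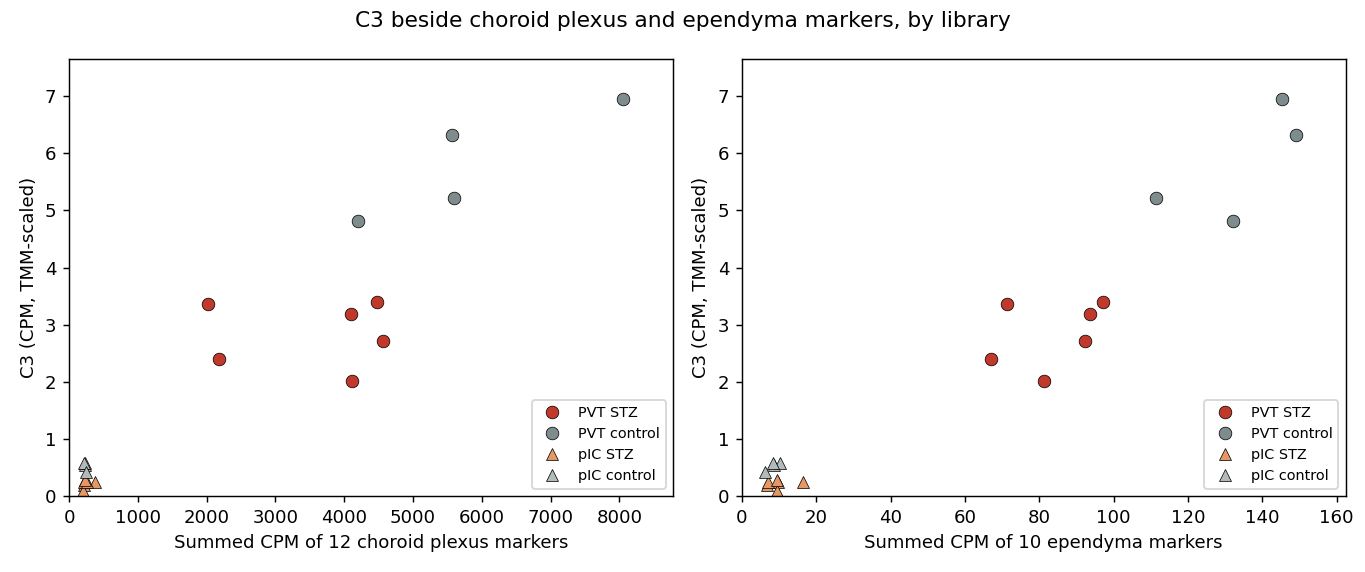
C3 (y axis, CPM) against the summed CPM of 12 choroid plexus markers (left) and 10 ependyma markers (right) in each of the 20 libraries, circles for PVT and triangles for pIC. The PVT groups overlap in choroid plexus sum, at 2022 to 4560 CPM in STZ and 4206 to 8046 CPM in control libraries, and the ependyma sums of the PVT groups do not overlap.

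Oligodendrocyte markers, genes of the myelinating glia, were set beside C4b. All 10 had a negative log2 fold change in PVT, with a median of −0.30. Of these, 3 passed the test as lower in STZ, beside 1.59% of all tested genes (edgeR). Their sum was 6610 to 9243 CPM in PVT STZ and 8152 to 10050 CPM in PVT control libraries, which overlapped. In pIC 0 of the 10 passed and 1 had an unadjusted p under 0.05, with sums of 2999 to 6586 CPM in STZ and 3326 to 4485 CPM in control libraries. Between regions all 10 passed as higher in PVT, with median log2 fold changes of 0.93 in STZ mice and 1.19 in control mice. Over all tested genes 26% and 25.5% were called higher in PVT in these comparisons. Their part in the C4b values was not tested.

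The 16 interferon-stimulated genes were listed with earlier results of these data known, so their count of calls is no independent finding. Of these, 15 passed the test as lower in STZ in each region, and all 16 had a negative log2 fold change. Over all tested genes 1.59% were called lower in PVT and 0.964% in pIC (edgeR). The sum of the 16 was 90.1 to 105.9 CPM in PVT STZ and 310.8 to 425.6 CPM in PVT control libraries. In pIC it was 78.6 to 95.3 CPM in STZ and 233.7 to 314.9 CPM in control libraries. Their part in the fall of C3 and C4b in PVT was not tested.

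Markers of border macrophages were set beside C5ar1. The 10 markers of these cells, which live in the meninges and around vessels (Mrc1, Cd163, Lyve1 and others), summed to 18.9 to 28.7 CPM in PVT STZ and 15.5 to 17.2 CPM in PVT control libraries, and to 23.5 to 32.3 CPM in pIC STZ and 16.1 to 19.7 CPM in pIC control libraries. Neither pair of groups overlapped in the sum. By gene, 2 of 9 tested markers passed as higher and 1 as lower in PVT, where 6 had a positive and 3 a negative log2 fold change. In pIC 2 of 7 passed as higher, and all 7 were positive. Over all tested genes 0.474% were called higher and 1.59% lower in PVT, and 0.432% higher in pIC. The 10 markers of blood neutrophils and monocytes, other carriers of C5aR1, summed to 1.35 to 5.66 CPM in PVT STZ and 1.27 to 3.16 CPM in PVT control, and to 1.59 to 2.28 CPM in pIC STZ and 1.16 to 2.17 CPM in pIC control libraries, and Ly6g had at most 3 counts in every library. The part of these cells in the C5ar1 values was not tested.

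**Figure D4:**
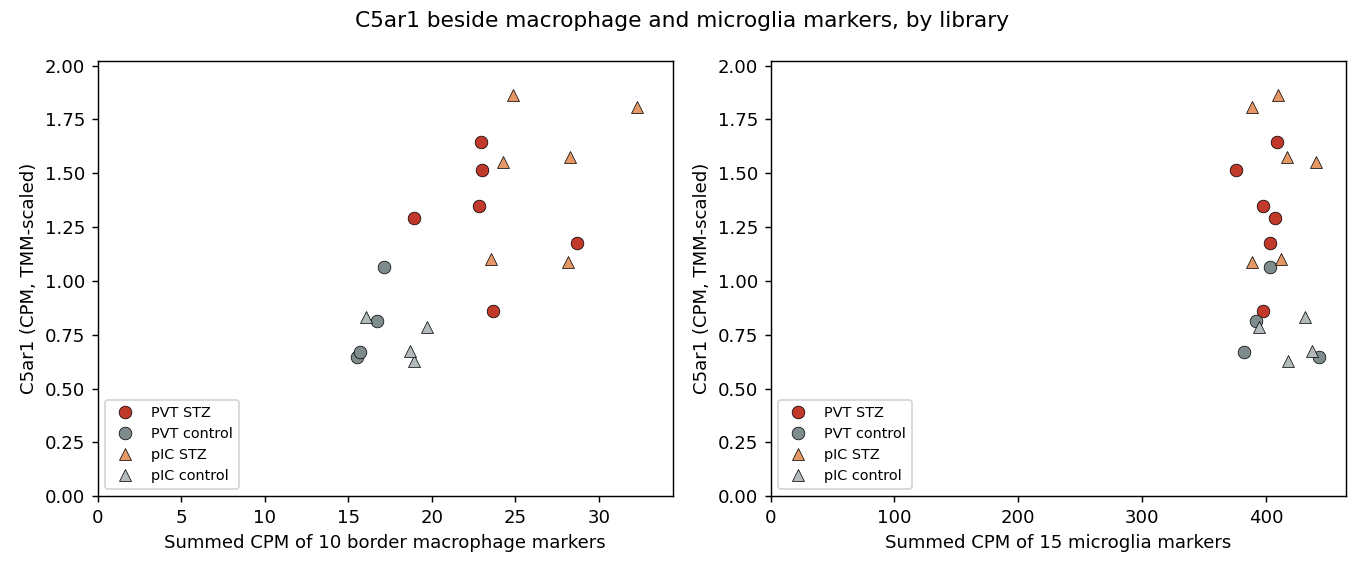
C5ar1 (y axis, CPM) against the summed CPM of 10 border macrophage markers (left) and 15 microglia markers (right) in each of the 20 libraries, circles for PVT and triangles for pIC. The STZ libraries lie at 18.9 to 32.3 CPM of border macrophage markers and the control libraries at 15.5 to 19.7 CPM, while the microglia sums of STZ and control libraries overlap in both regions.

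The rest of the pathway was read from 55 further complement genes, of which 34 were tested in PVT and 28 in pIC. None of them passed the test in either region in the main fits (edgeR), beside 2.07% of all tested genes called in PVT and 1.4% in pIC. At those shares a list this short may hold no called gene, so counts of 0 say little about the pathway. In PVT 2 had an unadjusted p under 0.05, and DESeq2 and limma-voom called 0. In pIC 3 had an unadjusted p under 0.05, and DESeq2 and limma-voom again called 0. The median log2 fold change was −0.11 in PVT beside 0.0038 over all tested genes, and −0.05 in pIC beside −6e-04. By role, 0 of 8 proteases and collectins of the classical and lectin pathways passed in PVT (median −0.21), 0 of 2 genes of the alternative pathway, 0 of 2 terminal components, 0 of 4 soluble regulators, 0 of 12 membrane regulators (median 0.06) and 0 of 6 receptors (median −0.17).

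The lowest p among these genes belonged to regulators and receptors. Itgam, the alpha chain of complement receptor CR3 on microglia, averaged 17.1 ± 0.844 CPM in PVT STZ and 20.8 ± 3.08 CPM in PVT control libraries (log2 fold change −0.28, edgeR, adjusted p = 0.137). It was called only in the fit without control replicate 4, the library with growth hormone (edgeR, adjusted p = 0.0428). Leaving out another library gave an adjusted p of up to 0.289. Cd55, a membrane protein that speeds the decay of C3 convertases, averaged 6.84 ± 0.988 CPM in PVT STZ and 8.89 ± 1.07 CPM in PVT control libraries (log2 fold change −0.38, edgeR, adjusted p = 0.147). In pIC, Vtn (vitronectin), an inhibitor of the terminal complex, averaged 53.8 ± 3.24 CPM in STZ and 61.8 ± 7.78 CPM in control libraries (log2 fold change −0.20, edgeR, adjusted p = 0.307). C5ar2, the other receptor for C5a, was picked out after its values were seen, with a log2 fold change of −0.19 in PVT (adjusted p = 0.756) and 0.51 in pIC (adjusted p = 0.506).

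Profiles over the 20 libraries were compared by the mean absolute difference of log2 CPM, each gene centred on its own mean, among 14753 genes with a symbol and at least 1 CPM on average. The measure takes in region as well as treatment. Nearest to C3 were Mlf1, Rdh5 and Dynlrb2 with differences of 0.30, 0.32 and 0.35, against a median of 1.63 over the genes. Dynlrb2, a dynein light chain of cilia, is among the ependyma markers used here. Nearest to C4b were Elovl7, Mtss1 and Rnf122 at 0.20, 0.21 and 0.22 (median 0.73), and nearest to Serping1 were Mfap2, Aebp1 and Krt77 at 0.18, 0.18 and 0.19 (median 0.39). For C1qa, Flad1, Dtymk and Ing4 at 0.06, 0.06 and 0.07 were nearest (median 0.21), beside a mean deviation of 0.10 of C1qa from its own mean.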

How the data were processed

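Poly(A)-selected, stranded paired-end libraries were sequenced from tissue punches, per the labels' protocols. The authors deposited raw gene counts in 1 table of 57180 Ensembl identifiers over 20 libraries, of which 51884 matched a symbol. The builds named in the submitters' processing notes are GRCm39 and mm39. The aligner, counter, annotation and strand setting were not given in the sources used here. The members and gene lists were chosen with earlier results of these data known. STZ was tested against control within each region, PVT against pIC within each treatment, and the interaction over all libraries, with edgeR 4.0.16 in R 4.3.3 (TMM, filterByExpr with minimum count 10 and minimum total 15, robust quasi-likelihood test, Benjamini-Hochberg adjustment over all tested genes, threshold 0.05). Standard errors were taken from the log2 fold change and F, and 95% intervals from the t distribution. DESeq2 1.42.0 and limma 3.58.1 (voom with quality weights), other scalings, no filter, a replicate block, marker scores as covariates and leaving out each library were alternatives. The procedure was tested on simulated data. All members were named, with the 2 wider complement genes of smallest p per region where none passed, 1 of which is not reported here, and the 3 nearest genes of C3, C4b, C1qa and Serping1. No library pair of a group agreed within sampling noise (42 pairs, lowest chi-square per degree of freedom 3.79). PVT and pIC libraries share labels, but the labels do not say that these are 1 animal and same-labelled libraries did not deviate together throughout, so pairing by label was an alternative only.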

Additional observations from a re-analysis of the deposited data

Results flagged for a closer look

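In pIC STZ libraries, replicate 4 lay apart below the others for C3, with a gap of 0.626 of the group's range in log2 CPM, at 2 counts. In the same group, replicate 3 lay apart above the others for C1qa, with a gap of 0.627 of the range, at 48.7 CPM. That library also had the highest choroid plexus, striatal neuron and oligodendrocyte marker sums of the group, 369.8, 4085 and 6586 CPM. Its sum of cortical excitatory neuron markers was the lowest, 1944 CPM. Over 48 groups of values, chance gives about 2.4 such gaps, and 2 were found.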

How the results depend on the processing

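Where a member or a named wider complement gene was called in the main analysis, its sign was the same in every alternative. Some estimates that were not called did change sign. Over the alternatives the log2 fold change in PVT ran from −0.97 to 0.15 for C3ar1 and from −0.46 to 0.18 for Cd55. In PVT the count of members called was 2 in the main analysis and 0 with the replicate block. With marker scores as covariate it was 1 for microglia, 0 for choroid plexus and 0 for ependyma. When 1 library was left out it was 1 to 2. In pIC the count, 1 in the main analysis, was 2 with DESeq2, 2 with all 20 libraries in 1 fit, 2 with the choroid plexus score, 2 with the ependyma score, 0 with the microglia score, 0 with the replicate block, and 0 to 1 when 1 library was left out. The interaction gave 0 called members under all its alternatives, and the region comparison 2 in STZ mice and 2 to 3 in control mice. Limma-voom called C4b in pIC (adjusted p = 0.0272) in place of C5ar1 (adjusted p = 0.059). Over all genes, PVT calls numbered 353 in the main analysis, 904 with DESeq2, 679 with all libraries in 1 fit, 132 with the microglia score, 60 with the choroid plexus score and 6 with the ependyma score. In pIC they numbered 226 in the main analysis, 468 with DESeq2, 360 with limma-voom, 125 with the microglia score and 362 with the ependyma score. With the microglia score the adjusted p was 0.0758 for C4b in PVT and 0.122 for C5ar1 in pIC. The cause of these shifts was not tested.

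Same-numbered libraries of STZ and control groups had correlated deviations of −0.26 to 0.45 in PVT and −0.04 to 0.38 in pIC, and those of PVT and pIC, which share a label such as the fourth control, of −0.07 to 0.25 in STZ mice (4 of 6 correlated best with their own number) and −0.12 to 0.11 in control mice (1 of 4). Growth hormone was high in both libraries of control replicate 4, at 11830 CPM in PVT and 35.8 CPM in pIC. The labels do not say that a shared label is a shared animal, and the numbers were not taken as pairs. Within a region the block joined STZ and control libraries by number alone, and STZ replicates 5 and 6 had no control of the same number. With the replicate block PVT calls over all genes fell to 72 and pIC calls were 240, and the adjusted p was 0.0617 for C3 and 0.0857 for C4b in PVT, and 0.0812 for C5ar1 in pIC. Between regions with the block, C3 and C4b stayed called in both treatments, and Serping1 in control mice had an adjusted p of 0.0816. Counts were low for C3 in pIC, at 2 to 12, and for C5ar1, at 14 to 44.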

Other observations

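Other complement genes differed between the regions, and those named here were picked after their values were seen. Of the 55 further genes, 6 were higher and 6 lower in PVT than in pIC among 32 tested in STZ mice, and 9 were higher and 6 lower among 33 tested in control mice (edgeR, adjusted p under 0.05), beside 49.1% and 47.8% of all tested genes called. Cpn1, a carboxypeptidase that inactivates C3a and C5a, had a log2 fold change, PVT over pIC, of 2.95 in STZ mice and 3.71 in control mice. Cd59a, a membrane inhibitor of the terminal complex, had 1.29 in STZ mice and 1.58 in control mice. C1ra, a protease of the C1 complex, was lower in PVT, with log2 fold changes of −1.37 in STZ mice and −0.86 in control mice.

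The genes with profiles nearest to C5ar1 over the 20 libraries were Fkbp5, Slc38a2 and Cd14, with mean absolute log2 differences of 0.22, 0.22 and 0.23 beside a median of 0.46 over all genes. They were named after their values were seen.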
